A study of Rattus norvegicus with 8 samples.

Results

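Deubiquitinases and ubiquitin-conjugating enzymes were described in the hippocampus of 8 male Wistar rats by 1-colour Agilent arrays, 1 array per rat. Members were taken by gene symbol alone, as symbols that start with Usp and a digit, Uch, Otu or Ube2, with Usp18 left out. This gave 58 genes of the 12206 that could be named on the array, measured by 86 probes. They were 28 genes with a USP symbol, most of them ubiquitin-specific proteases, 24 ubiquitin-conjugating enzymes (E2), 5 ovarian-tumour-domain proteases (OTU) and 1 ubiquitin C-terminal hydrolase (UCH). The 4 control rats ate the standard CE-2 feed and the 4 CCH rats ate that feed with 0.1% coral calcium hydride (CCH) powder, a hydrogen-bearing material derived from coral calcium. Both groups started at 6 weeks of age and were killed at 8 weeks, and the series title asks about antioxidant ability in the brain.

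Ubiquitin is a small protein that is attached to other proteins in a relay of an activating enzyme (E1), a conjugating enzyme (E2) and a ligase (E3), and chains of it send many proteins to the proteasome. Deubiquitinases cut ubiquitin off again, which rescues substrates, edits chains and returns free ubiquitin to the pool. In neurons the cycle is known for turnover of synaptic receptors and scaffolds, for clearance of damaged mitochondria and for handling of misfolded proteins.

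Each of the 45018 spots of an array gave 1 fluorescence signal, and between 76.3% and 79.9% of the non-control spots were well above background. Signals are given as log2 relative to the array's 75th percentile, so that 0 is that percentile, and a difference is the CCH mean minus the control mean on this scale. All controls were hybridised on slide 1 and all CCH samples on slide 2, scanned separately. Diet therefore cannot be told apart from slide or scan in the values below. The median background averaged 33.25 on the control arrays and 34.875 on the CCH arrays, and the 75th percentile of signal averaged 611 and 732. The free-text sample descriptions speak of a lesion model with drug injections, against the titles and treatment labels, which define the groups here. Markers of neurons were well above background on all arrays for 6 of 6 tested genes, as were those of hippocampal principal neurons for 8 of 8. No cell-type marker tested was called by limma, but several lists leaned one way. All 8 oligodendrocyte markers were higher in CCH (scores from -0.33 to -0.09 in control and from 0.03 to 0.35 in CCH, on a mean-centred log2 scale), and 5 of 7 microglia markers were lower (-0.01 to 0.21 and -0.19 to -0.02). Of the 8 markers of hippocampal principal neurons 6 were higher, with overlapping scores (-0.17 to 0.03 and -0.07 to 0.14). All 11 tested choroid plexus markers were lower, with scores from -0.67 to 2.10 in control and from -3.72 to 1.55 in CCH, and 7 of them were well above background on all arrays. The part of these shifts in the results below was not tested, apart from a fit with the choroid score as a covariate. In this whole tissue, fewer cells of a type and less RNA per cell cannot be told apart.

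Of the 86 member probes, 84 for 57 genes were tested, all of them well above background on every array. The exceptions were the single probe of Usp26 and 1 of 3 probes of Usp42, which were not well above background on any array. One member, Usp7, was called between the diets (limma, p-values adjusted by Benjamini-Hochberg over the 31618 tested probes, adjusted p under 0.05), which is 1.19% of the member probes against 0.174% of all tested probes. Over the members 48 probes (57.1%) were higher and 36 lower in CCH, where 55.1% of all tested probes were higher and 44.9% lower, with a median log2 difference of 0.05, beside 0.03 over all tested probes. At an unadjusted p under 0.05 stood 11 member probes higher and 4 lower, which is 13.1% and 4.76%, against 8.79% and 6.59% of all probes. The 4 CCH arrays lay wholly above the 4 control arrays for 11 member probes and wholly below for 3, against a background of 6.59% and 4.7%. Most members differed little, with 59 of 84 (70.2%) within 0.2 of 0 on the log2 scale, where 60.9% of all tested probes lay. Of the tested probes with a gene name, as all members have, 63.9% lay there, and their median difference was 0.02.

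**Figure D1:**
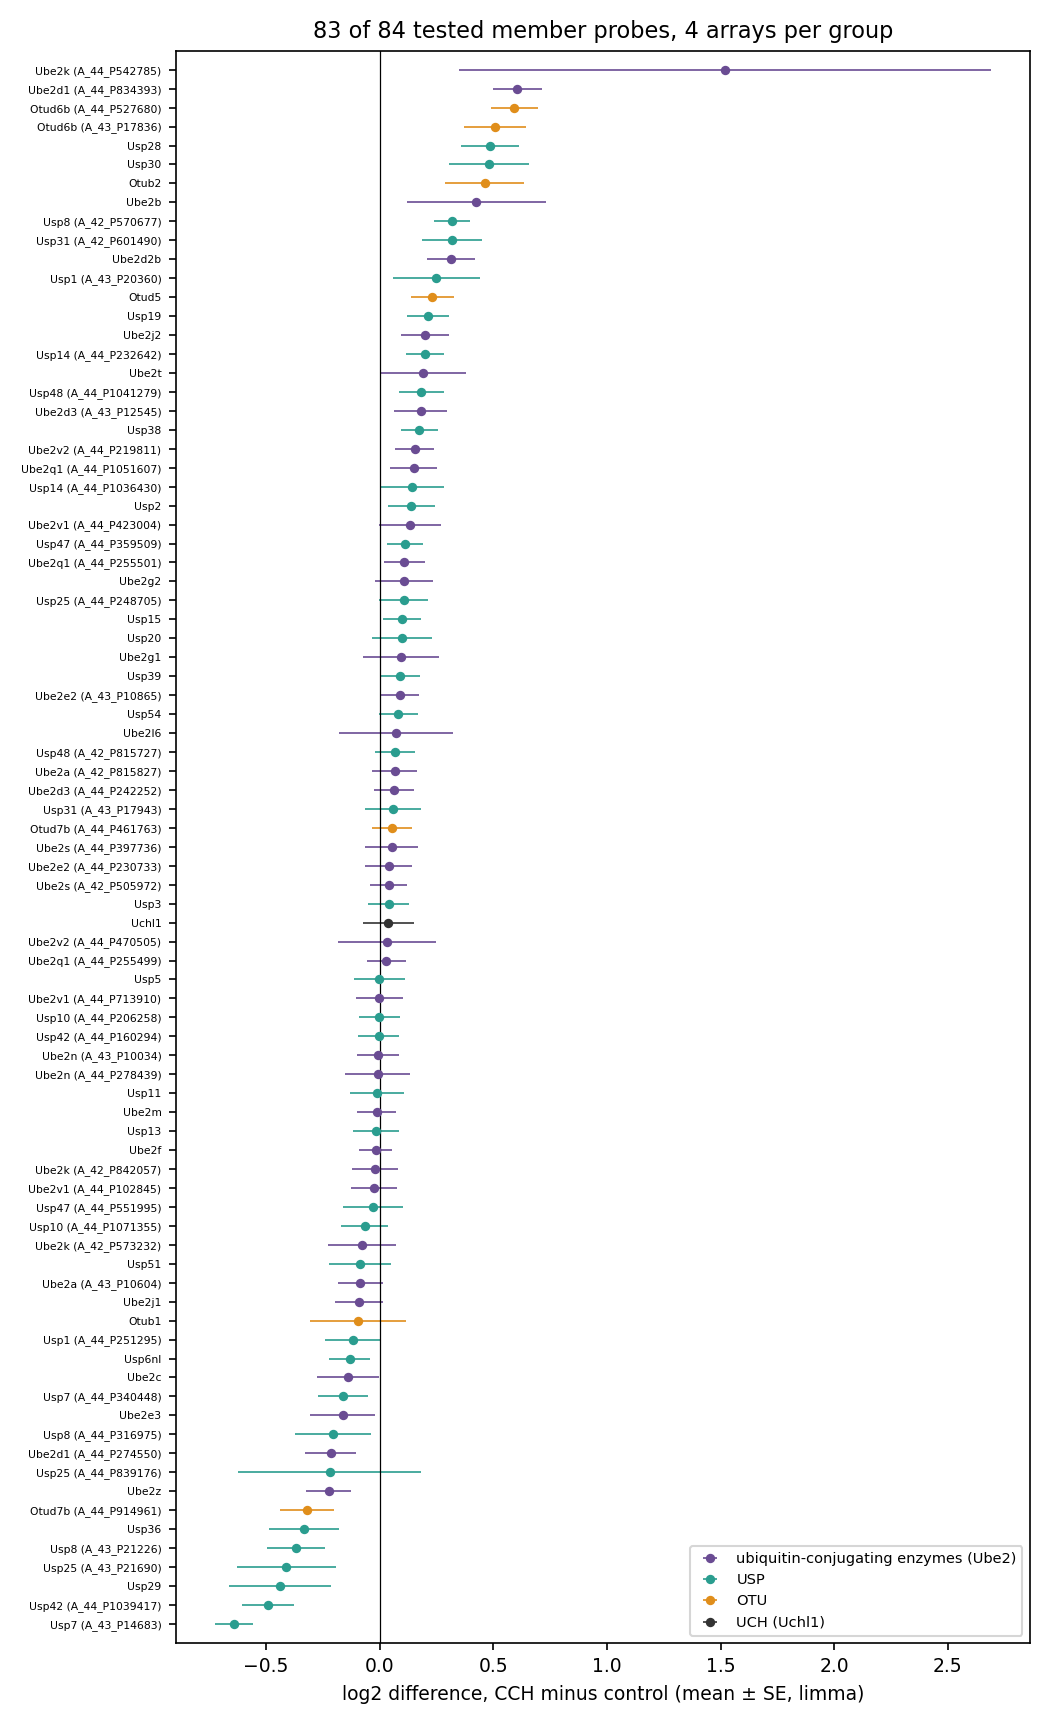
Log2 difference between CCH and control for 83 of the 84 tested member probes, with the limma standard error, 4 arrays per group, coloured by family; probe names are given where a gene has several. Usp7 is at the bottom at -0.64, and the point at the top, Ube2k at 1.52 with an SE of 1.17, rests on 1 control array.

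USP7, also known as HAUSP, removes ubiquitin from p53 and from its ligase MDM2 and acts on many nuclear proteins. Its probe A_43_P14683 read 1.50, 1.31, 1.40 and 1.30 on control replicates 1 to 4 and 0.66, 0.74, 0.75 and 0.79 on CCH replicates 1 to 4. The groups did not overlap, and every CCH array lay below the lowest control array. On this probe Usp7 fell 1.56-fold in CCH (log2 -0.64 ± 0.08, SE, n = 4 per group, limma adjusted p = 0.0399, 95% confidence interval -0.83 to -0.45). The second Usp7 probe, A_44_P340448, is assigned to the same transcript record and differed by -0.16 ± 0.11 (SE, limma adjusted p = 0.545), with overlapping groups. The call held in 10 of 20 alternative settings. It was kept without CCH replicate 1 (limma adjusted p = 0.0355) and ended without any other array (0.107 to 0.145), without a detection filter (0.0588) and with the choroid covariate (0.146). In the last 2 fits 0.0707% and 0.00316% of all probes were called. The difference itself lay between -0.67 and -0.58 over 20 alternative settings, and it was -0.65 with the choroid covariate. Settings that changed only the filter or the variance model could not move it.

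Usp7 was grouped with Usp1, Usp10, Usp11, Usp28, Usp47 and Usp48 in a list of proteases linked to DNA damage and p53, in which Usp28 had the next smallest p. USP28 stabilises MYC and takes part in the DNA damage checkpoint. It read -4.14, -3.77, -3.57 and -3.78 in the controls and -3.41, -3.26, -3.24 and -3.40 in CCH. The CCH arrays were all higher, but the difference of 0.49 ± 0.13 (SE, limma adjusted p = 0.132) was not called and shrank to 0.15 with normexp background correction. This list had 12 tested probes for 7 genes, 5 higher and 7 lower, with a median of -0.01 and Usp7 as its 1 call. Usp11, another protease of DNA repair, differed by -0.01 ± 0.12 (SE, 95% confidence interval -0.28 to 0.26). Promoter windows, the 250 bases before the RefSeq start on GRCr8, are printed for Usp28, Usp8 and Ube2d1, the genes with a window that had the smallest p among probes whose groups did not overlap. Capitals mark the GC box GGGCGG, the cyclic AMP response element core TGACG and the ETS core CCGGAAG on either strand. The Usp28 window, chr8:58222179-58222428 on the plus strand, is 76.4% GC and held 7 GC boxes.
Usp28: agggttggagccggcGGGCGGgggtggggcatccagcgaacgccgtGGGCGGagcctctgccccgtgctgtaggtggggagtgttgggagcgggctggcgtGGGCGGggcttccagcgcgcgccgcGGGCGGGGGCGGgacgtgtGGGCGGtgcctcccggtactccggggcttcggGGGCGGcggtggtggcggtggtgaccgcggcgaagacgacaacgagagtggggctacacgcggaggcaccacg

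The OTU proteases gave 5 higher and 2 lower of 7 probes, with a median log2 difference of 0.23, and none was called. Otud6b, an OTU-family deubiquitinase linked to protein synthesis and proteasome assembly, was the 1 member with several probes under an unadjusted p of 0.05 in 1 direction. Probe A_44_P527680 read -1.65, -1.68, -1.83 and -1.69 in the controls and -0.99, -0.97, -1.31 and -1.21 in CCH. Probe A_43_P17836 read -2.20, -2.41, -2.32 and -2.29 in the controls and -1.76, -1.48, -2.12 and -1.85 in CCH. On both probes all 4 CCH arrays lay above all 4 controls, and CCH replicate 3 was the closest to them. The differences were 0.59 ± 0.10 (SE, limma adjusted p = 0.0583) and 0.51 ± 0.14 (SE, limma adjusted p = 0.142), that is 1.51-fold and 1.42-fold. The first of them passed the threshold when tests were limited to probes well above background on all 8 arrays (limma adjusted p = 0.0481), with trend and robust variance (0.0473), with array weights (0.0249) and without CCH replicate 1 (0.0479). In these fits 0.707%, 0.68%, 4.09% and 2.22% of all probes tested were called, beside 3, 3, 5 and 3 member probes. Probe A_44_P527680 was called only in these 4 of 20 alternative settings. It was at 0.41 with normexp (limma adjusted p = 0.0703) and at 0.56 with the choroid covariate (0.185).

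Otub2, a lysine-63-preferring OTU protease, read -3.06 on CCH replicate 1 and between -3.79 and -3.49 on the other CCH arrays, beside -4.14 to -3.76 in the controls. The groups overlapped, and the difference of 0.46 ± 0.17 (SE) was 0.31 without CCH replicate 1 and 0.07 with normexp background correction. Otud5, which acts in innate immune signalling, read -1.96, -1.88, -1.98 and -1.88 in the controls and -1.52, -1.68, -1.85 and -1.73 in CCH. Its groups did not overlap, and it differed by 0.23 ± 0.09 (SE, limma adjusted p = 0.290; 0.15 with normexp). Otud7b, also called Cezanne, which cuts lysine-11 chains, was at -0.32 ± 0.12 (SE) on 1 probe and 0.05 ± 0.09 (SE) on the other. Otub1, an inhibitor of E2 enzymes, differed by -0.10 ± 0.21 (SE, 95% confidence interval -0.58 to 0.38). Single arrays set that value, which was -0.29 without CCH replicate 1 and 0.04 without CCH replicate 3.

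**Figure D2:**
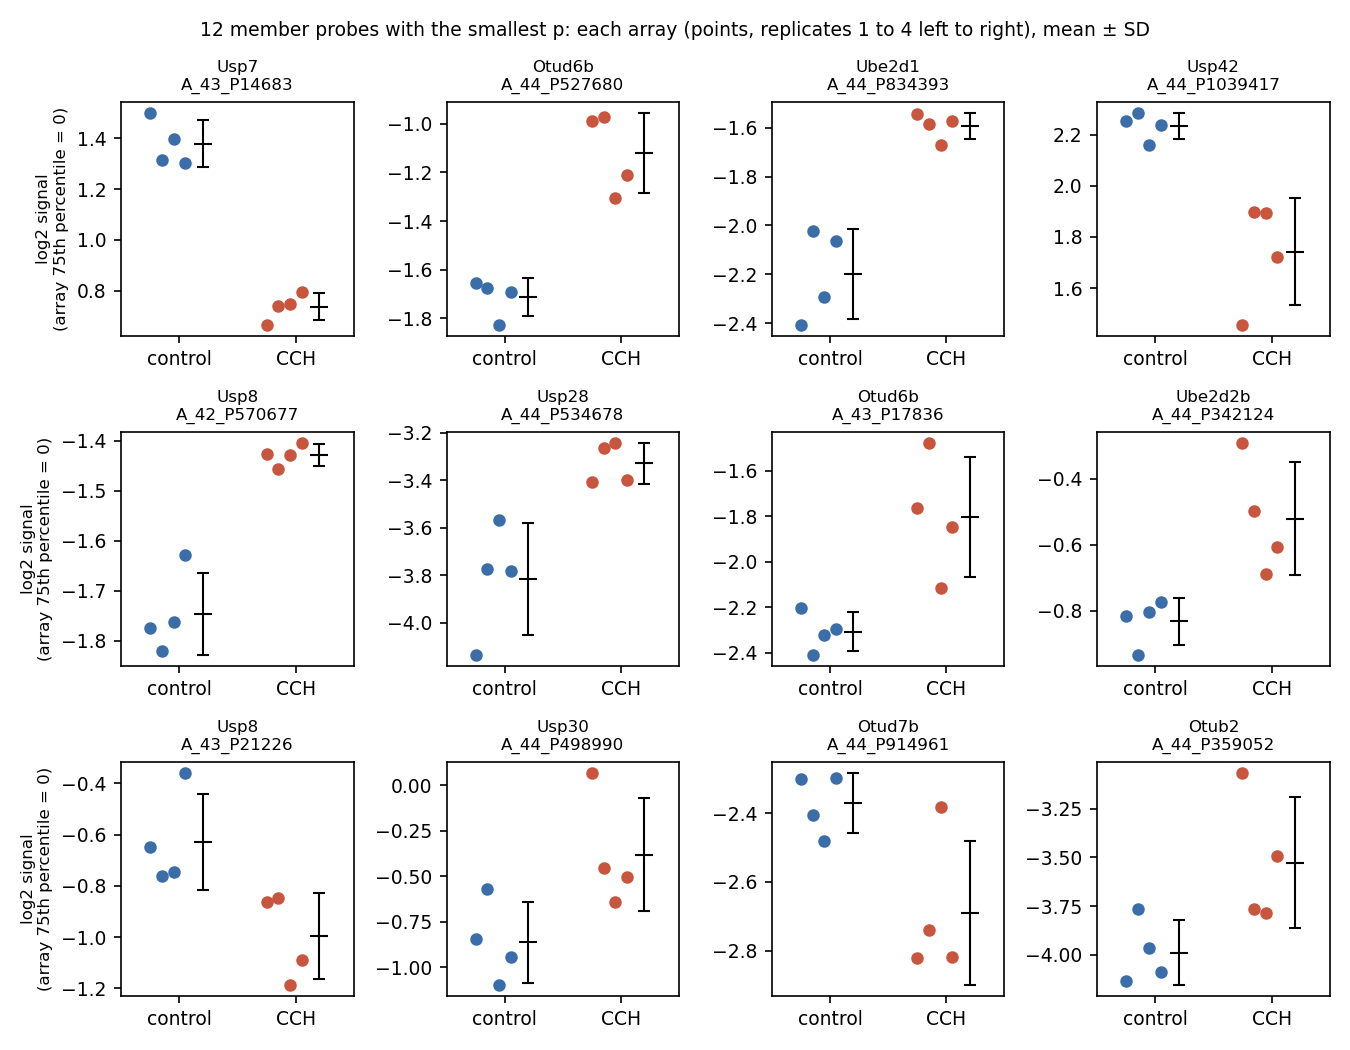
Log2 signal on each of the 8 arrays for the 12 member probes with the smallest p, with the group mean and SD beside the points; the vertical scale differs between panels. The groups of Usp7 are separated by the gap between 0.79 and 1.30, while those of Usp30, Otud7b and Otub2 overlap.

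Uchl1, an abundant neuronal hydrolase also known as PGP9.5 and linked to Parkinson's disease, was the only UCH member measured. It read 5.32, 5.53, 5.13 and 5.36 in the controls and 5.22, 5.40, 5.36 and 5.52 in CCH. The ranges overlapped almost fully, and the difference was 0.04 ± 0.11 (SE, 95% confidence interval -0.22 to 0.30), with its sign turned without control replicate 3 (-0.03) or CCH replicate 4 (-0.01) and with the choroid covariate (-0.06). Usp14, which trims ubiquitin from substrates at the proteasome, read 0.66, 0.57, 0.55 and 0.57 in the controls and 0.78, 0.91, 0.69 and 0.77 in CCH on probe A_44_P232642. These groups did not overlap, and the difference was 0.20 ± 0.08 (SE, limma adjusted p = 0.305). The second Usp14 probe differed by 0.14 ± 0.14 (SE), or 0.03 with the choroid covariate. The recycling protease Usp13, which is related to Usp5, differed by -0.02 ± 0.10 (SE). The proteasome and recycling list gave 2 higher and 2 lower of 4 probes and no call.

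Usp30 sits on the mitochondrial outer membrane and opposes mitophagy. It read -0.84, -0.57, -1.10 and -0.94 in the controls and 0.07, -0.46, -0.64 and -0.50 in CCH. CCH replicate 1 was the highest array, and CCH replicate 3 lay inside the control range. The difference was 0.48 ± 0.18 (SE, limma adjusted p = 0.245), or 0.33 without CCH replicate 1. Usp15, which also opposes mitophagy, differed by 0.10 ± 0.08 (SE). Usp8 spares endosomal receptors from lysosomal breakdown and acts on the mitophagy ligase parkin, and its 3 probes gave 1 higher and 2 lower values. Over the list of endosome, receptor and synapse proteases 3 probes were higher and 4 lower, with a median that rounds to 0 beside 0.03 over all tested probes. The histone proteases Usp3 and Usp51 differed by 0.04 ± 0.09 and -0.09 ± 0.14 (SE). Usp3 was at -0.01 with normexp, and without CCH replicate 1 both values moved to within 0.01 of 0.

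Usp42, which is in none of these lists, had the lowest difference of the tested members after Usp7. USP42 acts on p53 and on histone H2B. Probe A_44_P1039417 read 2.25, 2.28, 2.16 and 2.24 in the controls and 1.46, 1.90, 1.89 and 1.72 in CCH. The groups did not overlap, and the difference of -0.49 ± 0.11 (SE) had a limma adjusted p of 0.104, or 0.0358 with array weights. The second tested Usp42 probe, A_44_P160294, differed by -0.01 ± 0.09 (SE) with overlapping groups. Usp19, a protease with a form anchored in the endoplasmic reticulum membrane, differed by 0.21 ± 0.09 (SE) with groups that did not overlap. The same held for Usp38 at 0.17 ± 0.08 (SE), which turned to -0.02 with normexp, and for 1 of the 2 Usp48 probes at 0.18 ± 0.10 (SE; 0.11 without control replicate 2), where the other was at 0.07 ± 0.09 (SE). Both were singled out after their values were seen. Usp31 was at 0.32 ± 0.13 (SE; 0.16 with normexp) on 1 probe and 0.06 ± 0.12 (SE) on the other. The nucleolar Usp36 differed by -0.34 ± 0.15 (SE; -0.19 without CCH replicate 1). Usp29 differed by -0.44 ± 0.23 (SE) and moved to -0.23 without CCH replicate 1, -0.27 with array weights and -0.67 with the choroid covariate. Usp25 was at -0.41 ± 0.22 (SE) on probe A_43_P21690, and at -0.20 there without control replicate 1. The other Usp25 probes were at 0.10 ± 0.11 (SE; -0.01 with normexp) and at -0.22 ± 0.40 (SE), which turned to 0.24 without CCH replicate 1. Usp6nl, a GTPase-activating protein and not a protease, differed by -0.13 ± 0.09 (SE), and Usp39, a spliceosome protein without protease activity, by 0.09 ± 0.09 (SE; 0.04 without CCH replicate 1).

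The E2 enzymes lay closer to 0 than the other members, a difference that was not tested. Of 37 probes for 24 genes 22 were higher and 15 lower, with a median of 0.04. Within 0.2 of 0 lay 31 of them (83.8%), beside 28 of the 47 USP, OTU and UCH probes (59.6%). Of all tested probes 60.9% lay there, and of those with a gene name 63.9%. No E2 was called. Where 15.4% of all tested probes had an unadjusted p under 0.05, 2 of the 37 E2 probes did, both higher. Ube2d1, also known as UbcH5a and a partner of many RING and HECT ligases, gave the larger of them on probe A_44_P834393. It read -2.41, -2.02, -2.29 and -2.07 in the controls and -1.54, -1.58, -1.67 and -1.57 in CCH. All CCH arrays lay above all controls, and the difference was 0.61 ± 0.11 (SE, limma adjusted p = 0.0592). It passed the threshold when tests were limited to probes well above background on all 8 arrays (limma adjusted p = 0.0481), with trend and robust variance (0.0494), with array weights (0.0233) and without CCH replicate 1 (0.0497). It was called only in these 4 of 20 alternative settings. The difference was 0.43 with normexp (limma adjusted p = 0.0656) and 0.55 with the choroid covariate (0.191). The other Ube2d1 probe went the opposite way, at -0.22 ± 0.11 (SE). Ube2d2b, a close copy of Ube2d2, read -0.82, -0.93, -0.80 and -0.77 in the controls and -0.29, -0.50, -0.69 and -0.61 in CCH. Its difference was 0.31 ± 0.11 (SE, limma adjusted p = 0.214), with groups that did not overlap. The Ube2d1 promoter window, chr20:17308209-17308458 on the plus strand, is 68.4% GC and held 2 GC boxes.
Ube2d1: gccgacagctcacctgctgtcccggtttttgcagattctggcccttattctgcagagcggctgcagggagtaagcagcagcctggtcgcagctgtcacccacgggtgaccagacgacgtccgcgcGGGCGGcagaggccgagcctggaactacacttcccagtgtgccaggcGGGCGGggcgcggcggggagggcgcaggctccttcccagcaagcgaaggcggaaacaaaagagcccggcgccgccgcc

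The enzymes that build lysine-63 chains gave 3 higher and 4 lower of 7 probes, none under an unadjusted p of 0.05. They were Ube2n, also known as Ubc13, at -0.01 ± 0.09 (SE, 95% confidence interval -0.22 to 0.20) on its first probe, and its partners Ube2v1 and Ube2v2. Ube2v2 differed by 0.15 ± 0.09 (SE; 0.10 with the choroid covariate) on 1 probe and by 0.03 ± 0.21 (SE; 0.27 without CCH replicate 1) on the other. Ube2v1 differed by 0.13 ± 0.14 (SE; 0.03 without CCH replicate 1, 0.06 with array weights and 0.21 without CCH replicate 3) on 1 of 3 probes, and the other two lay within 0.03 of 0. The 4 enzymes of degradation at the endoplasmic reticulum were led by Ube2j2 at 0.20 ± 0.11 (SE), with Ube2j1 at -0.09 ± 0.10 (SE; -0.03 without CCH replicate 3 and -0.14 without control replicate 2). The anaphase-promoting-complex partners Ube2c and Ube2s differed by -0.14 ± 0.14 and 0.04 ± 0.08 (SE), and Ube2c was at -0.04 without CCH replicate 1. Of the DNA-damage enzymes, Ube2b, which pairs with RAD18, differed by 0.43 ± 0.31 (SE). That value ran from 0.13 with the choroid covariate to 0.68 without CCH replicate 1. Ube2t, the Fanconi anaemia E2, was at 0.19 ± 0.19 (SE) and at -0.22 with normexp. Enzymes of ubiquitin-like modifiers gave 1 higher and 4 lower of 5. Among them were Ube2z, which can load FAT10, at -0.22 ± 0.10 (SE), and the NEDD8 enzyme Ube2m at -0.01 ± 0.09 (SE, 95% confidence interval -0.21 to 0.18).

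For 22 member genes 2 or 3 probes were tested, always assigned to the same transcript record within a gene. In 9 of these genes (40.9%) the probes lay on opposite sides of 0, beside 38.5% of the 2265 genes with several tested probes. Their differences lay more than 0.3 apart in 8 member genes (36.4%), beside 23.0%. Usp8 was an example, with probe A_42_P570677 at -1.77, -1.82, -1.76 and -1.63 in the controls and -1.43, -1.46, -1.43 and -1.40 in CCH. Its probe A_43_P21226 read -0.65, -0.76, -0.74 and -0.36 in the controls and -0.86, -0.85, -1.19 and -1.09 in CCH. Neither probe's groups overlapped, yet the first differed by 0.32 ± 0.08 and the second by -0.37 ± 0.13 (SE). The third Usp8 probe was at -0.21 ± 0.17 (SE; -0.03 without CCH replicate 1, -0.06 with array weights and -0.32 with the choroid covariate). The Usp8 promoter window, chr3:134415276-134415525 on the plus strand, held 1 GC box, 2 TGACG matches and 1 ETS core.
Usp8: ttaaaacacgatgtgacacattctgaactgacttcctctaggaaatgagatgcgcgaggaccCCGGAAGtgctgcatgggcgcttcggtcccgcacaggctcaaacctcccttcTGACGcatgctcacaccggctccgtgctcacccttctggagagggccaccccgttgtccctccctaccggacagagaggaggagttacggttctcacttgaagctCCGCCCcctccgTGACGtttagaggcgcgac

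The gap between the differences of 2 probes of a gene was tested in all 32 such pairs by a two-sided exact permutation over the 35 splits of 8 arrays into 4 and 4. In 6 pairs, from Ube2d1, Ube2k, Usp7, Usp42 and from 2 pairs of Usp8, it reached 0.0286, the smallest exact p that 4 against 4 arrays allow, and 0.152 after adjustment over the 32 pairs. For Usp7 the gap was -0.48, for Usp42 -0.49, for Ube2d1 0.82 and for the first pair of Usp8 probes 0.69. For the Otud6b probes it was 0.09, with an exact permutation p of 0.343.

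**Figure D3:**
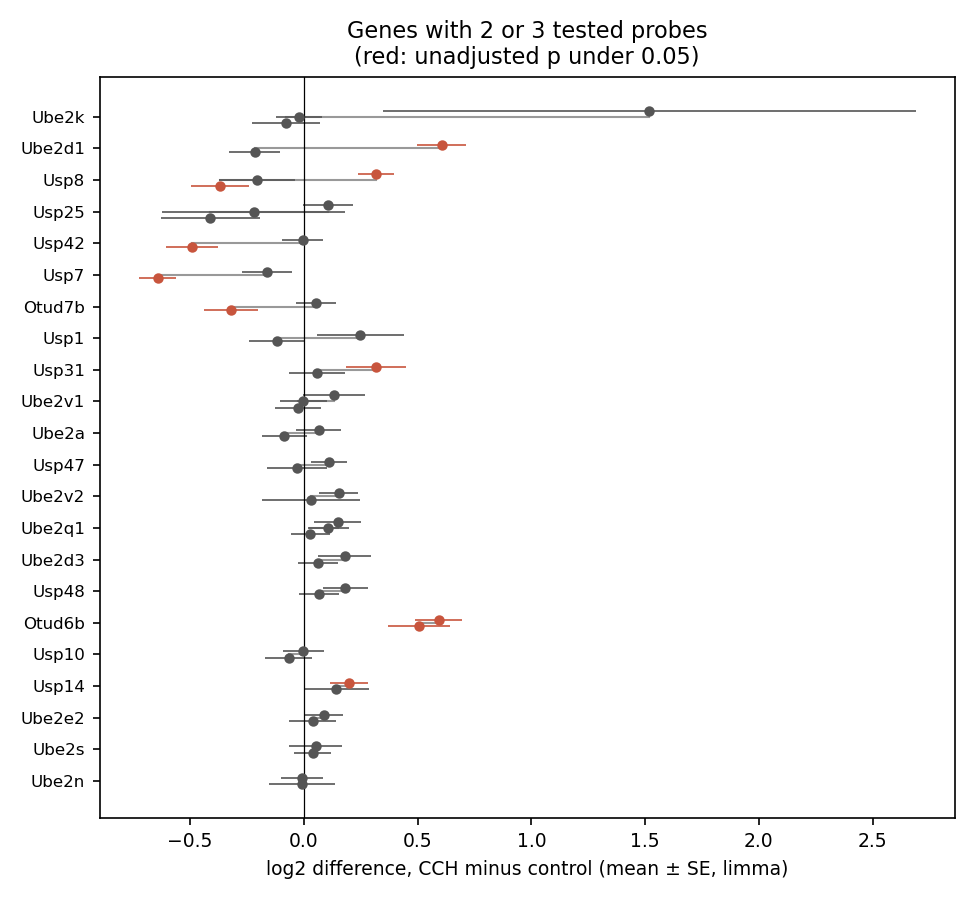
Log2 difference between CCH and control with its limma standard error for every tested probe of the 22 member genes with 2 or 3 tested probes, 4 arrays per group, with a grey line joining probes of a gene. Ube2d1 and Usp8 have probes on both sides of 0 whose error bars do not meet, while both Otud6b probes lie between 0.5 and 0.6.

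Ube2k, also known as E2-25K, had the largest difference of any tested member in value and also the largest SE. Its probe A_44_P542785 read 0.66, 0.81, 0.60 and -4.81 in the controls and 0.41, 1.01, 0.91 and 1.02 in CCH. Control replicate 4 was far below the other 7 arrays, carried no outlier mark from the scanner software, and gave the difference of 1.52 ± 1.17 (SE), which was 0.14 without that array. The other Ube2k probes read 3.34 and 5.17 on control replicate 4 and differed by -0.08 ± 0.15 and -0.02 ± 0.10 (SE). Ube2k was singled out after its values were seen.

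CCH replicate 1 stood apart from the other arrays. It held the highest or lowest value of the 8 arrays for 46 of the 84 member probes (54.8%), beside 51.3% of the 31543 tested probes with a value on every array, and the other arrays did so for 12 to 25 member probes. Its median absolute deviation from the other 3 arrays of its group was 0.23 over the members, and that of the other arrays was between 0.06 and 0.14. Without it 3 member probes were called (Usp7, Otud6b A_44_P527680 and Ube2d1 A_44_P834393), against 701 of all tested probes (2.22%). With any other single array left out no member was called by limma, where 0 or 1 of all tested probes passed.

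**Figure D4:**
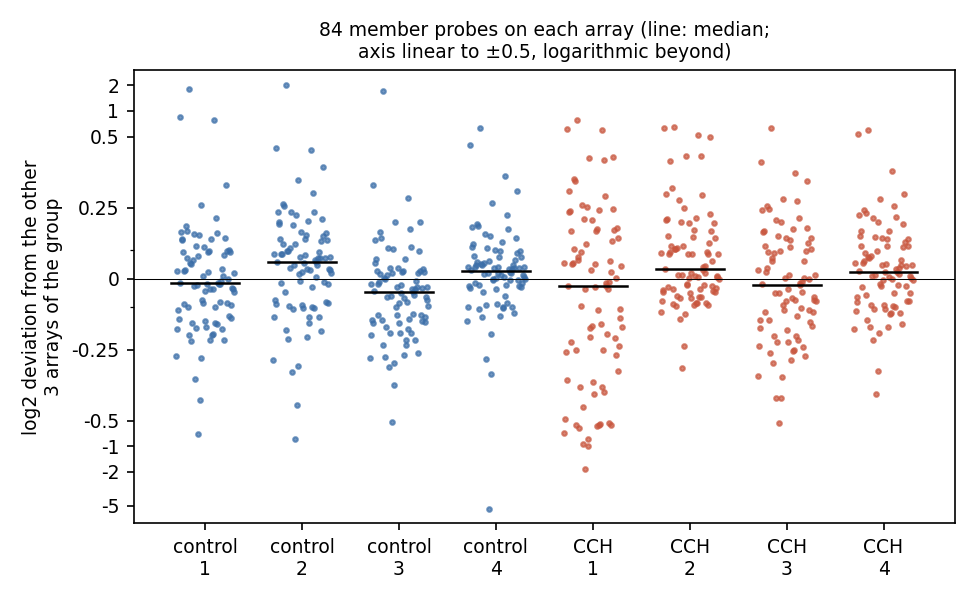
Deviation of each array from the mean of the other 3 arrays of its group, on the log2 scale, for the 84 member probes (points) with the median as a line and an axis that is linear to ±0.5 and logarithmic beyond. CCH replicate 1 spreads the most, from 25 probes where it is the lowest to 21 where it is the highest of the 8 arrays, and the lone point near -5 is Ube2k on control replicate 4.

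Over the 8 arrays the member probes most like Usp7 A_43_P14683 were Usp42 A_44_P1039417 (Pearson r = 0.89), Otud7b A_44_P914961 (0.76) and Ube2z A_44_P473741 (0.71). The least like were Ube2d1 A_44_P834393 (-0.97), Usp8 A_42_P570677 (-0.95) and Otud6b A_44_P527680 (-0.93). These points share their 2 groups, so the difference between groups is part of each value, and they are a description.

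The rest of the pathway was read from lists of genes outside the members. Rps27a, which encodes ubiquitin fused to a ribosomal protein, differed by -0.12 ± 0.09 (SE) with overlapping groups. The E1 enzymes gave 4 higher and 4 lower of 8 probes, and Uba1, the main ubiquitin E1, was at 0.17 ± 0.13 and 0.19 ± 0.20 (SE) on its probes. CCH replicate 1 was the highest array on both, at 2.09 beside 1.54 to 1.65 on the other CCH arrays and 1.47 to 1.59 in the controls, and at 0.84 beside -0.11 to 0.24 and -0.04 to 0.21. Other E2 enzymes gave 2 higher and 5 lower of 7, led by Atg10 at -0.25 ± 0.12 (SE) on 1 probe and -0.07 ± 0.11 (SE) on the other. Other deubiquitinases gave 10 higher and 5 lower of 15, and Josd2, a Josephin protease, differed by 0.36 ± 0.09 (SE, limma adjusted p = 0.115) with groups that did not overlap.

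Ligases gave 33 higher and 18 lower of 51 probes, with no call by limma over all probes. At an unadjusted p under 0.05 stood 5 higher and 4 lower of the 51, beside 8.79% and 6.59% of all tested probes. Cul5, a cullin scaffold of RING ligases, read -0.09, 0.05, -0.11 and -0.05 in the controls and -0.73, -0.63, -0.49 and -0.70 in CCH. Its groups did not overlap, and the difference of -0.59 ± 0.09 (SE) had a limma adjusted p of 0.0525. Smurf2 and Nedd4, both HECT ligases, were at -0.59 ± 0.12 and -0.55 ± 0.12 (SE, limma adjusted p of 0.0710 and 0.0878). Other probes of Smurf2 were at -0.34 ± 0.15 and 0.17 ± 0.10 (SE), and the other probe of Nedd4 was at 0.02 ± 0.13 (SE). Among the higher ligase probes Trim3 had the smallest p, at 0.26 ± 0.08 (SE, limma adjusted p = 0.195), with groups that did not overlap.

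RefSeq promoter windows on GRCr8 were matched by symbol for 50 of the 57 tested member genes, and the 250 bases before the annotated start were read, including the 3 windows printed above. Usp7, Otud6b and Usp42 were among the members without a window. The members' windows had a median GC content of 62.6% and 20 CG steps, against 59.2% and 15 over the 7945 windows of genes tested on the array. The GC box GGGCGG was found on either strand in 31 of 50 member windows (62.0%), against 55.2% of those 7945 windows and 32.4% of all 27457. The cyclic AMP response element core TGACG was in 23 (46.0%, against 27.1% and 19.0%), and the ETS core CCGGAAG in 13 (26.0%, against 14.2% and 7.74%). The antioxidant response element core TGACNNNGC was in 10 (20.0%, against 12.6% and 10.2%). The CCAAT box in 16 (32.0%, against 35.7% and 34.3%) and the E-box CACGTG in 3 (6.0%, against 8.06% and 5.79%) were found too, and TATAAA on the gene strand was in 2 (4.0%, against 5.44% and 8.38%). TGACG can overlap the antioxidant element, and a match is a string of letters, not a bound site. The full element TGACGTCA, which holds TGACG, was in 0 of 50 windows, against 2.77% of the tested genes and 1.70% of all.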

How the data were processed

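Per the file headers, the authors scanned Cy3-labelled total RNA and quantified spots in Agilent Feature Extraction 9.5. Its deposited processed signal is an intensity after background subtraction and detrending, not scaled between arrays. The deposited value table equals it to 3 significant digits (largest relative difference 0.00498). Spots with an outlier mark (55 to 122 per array, and 0 saturated) were set to missing. The log2 signal minus the array's 75th percentile was averaged per probe, and a probe was tested if well above background on at least 4 of 8 arrays, with at least 3 values per group. RefSeq accessions matched to a GRCr8 gene table named 15184 of 41012 probes (37.0%). The array grid names rn4, so no probe coordinates are given, and those of the printed promoter windows are on GRCr8. Probe sequences were not used here, so signal from close copies cannot be told apart: 11 tested member genes have pseudogene copies in that table, led by Ube2v1 with 19 and Ube2n with 9.

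The diets were compared probe by probe in limma 3.58.1 under R 4.3.3 (two-sided, Benjamini-Hochberg over 31618 probes, threshold 0.05), tested on simulated data. P-values measure the spread between 4 rats per group. Members and lists were chosen with earlier results of these data known. Named probes were the called ones, the 12 of smallest p per direction, the UCH class and the 2 leading probes of each role list. Genes with opposed probes were added where at least 1 of the probes had an unadjusted p under 0.05. For pathway lists the leading gene was named; others were named after their values were seen. Alternatives were normexp (offset 50, on the median signal because the planned mean signal was not used here), other scalings and filters, eBayes settings, array weights, a choroid covariate, a replicate block and each array left out. Results of a few genes are not reported here, and 1 member probe is left out of the ranked plot.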

Additional observations from a re-analysis of the deposited data

Results flagged for a closer look

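In 15 of 168 groups of 4 arrays (a member probe in 1 diet group) 1 array stood far from the other 3 by Dixon's criterion, where chance gives about 8.4, or 1 in 20. CCH replicate 1 was the array in 8 of them. It read 2.62 for Ube2e3, -1.52 for Ube2v2 (A_44_P470505), -4.52 for Usp8 (A_44_P316975) and -1.88 for Usp25 (A_44_P839176). It also read 3.16 for Ube2d3 (A_43_P12545), 2.70 for Ube2k (A_42_P573232), 1.69 for Usp10 (A_44_P1071355) and -0.53 for Usp47 (A_44_P551995). Control replicate 1 read 0.25 for Usp25 (A_43_P21690) and 1.02 for Usp19. Control replicate 2 read 0.32 for Usp31 (A_43_P17943) and 0.15 for Usp2. Control replicate 3 read -0.39 for Ube2v1 (A_44_P102845) and 3.74 for Ube2n (A_43_P10034). Control replicate 4 read -4.81 for Ube2k (A_44_P542785). All values are log2 relative to the array's 75th percentile.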

How the results depend on the processing

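Against 55 called probes in all and 1 among the members, limma called 189 and 1 with normexp, 29 and 0 without a detection filter, and 209 and 3 among probes well above background on all 8 arrays. It called 215 and 3 with trend and robust variance, 1293 and 5 with array weights, and 1 and 0 with the choroid covariate. At an adjusted p under 0.1 it called 3 members (3.57%, against 2.23% of all probes), and at an unadjusted p under 0.05 it called 15 (17.9%, against 15.4%). Other scalings, marked spots kept and the deposited value table gave 1 member each. With single arrays left out the counts ran from 0 to 701 in all and from 0 to 3 among members, both highest without CCH replicate 1. The replicate block called 0 probes and 0 members (0.172 for Usp7). Same-numbered arrays had correlated deviations of 0.145, 0.0797, -0.0052 and 0.246, so the numbers were not taken to pair the rats. The 781 values compared were those of 39 named probes and the members' median difference per gene. Only Usp7 A_43_P14683 among these probes was called in the main fit, so most kept their side by staying uncalled. A kept value could still move in size, as Otub2 did from 0.46 to 0.07 with normexp. Fits that changed only the filter or the variance model could not move a difference. The 754 values that kept direction and side of the threshold are therefore no measure of stability. Of the 781 values, 10 lost and 10 gained a call and 7 turned sign. The latter were Uchl1 with the choroid covariate (-0.064) and with an array left out (-0.032 to 0.10), Ube2t with normexp (-0.22), Usp3 with normexp (-0.00785) and with an array left out (-0.00365 to 0.081), and Usp51 with an array left out (-0.15 to 0.00361); the cause was not tested. The number of arrays limits the precision: member intervals such as that of Uchl1 span -0.22 to 0.30.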
